A study of Mus musculus with 6 samples.

Results

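Described here are 8 genes of MHC class I antigen presentation in cardiac nuclei, namely H2-Q6, H2-Q7, H2-Q4, H2-K1, H2-D1, B2m, Tap1 and Nlrc5. All 8 were found, each as 1 row, among the 33696 genes of the count matrices. H2-Q6 and H2-Q7 were chosen by their low level in treated R403Q hearts, so their values are given as a description with no test. The other 6 members were tested, to ask whether the lower level of the pair reached the rest of the class I genes. All 8 members were chosen with earlier results of these data known, which the p-values do not take into account.

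Single-nucleus RNA sequencing was carried out on left ventricular tissue of male mice aged 12 weeks, with 6 libraries in 3 groups of 2. The WT-CD group held wild-type littermates given control diet. In the R403Q-CD group the animals had the heterozygous cardiac myosin mutation labelled Myh6+/R404Q (R403Q) and the same control diet, and in the R403Q-EMPA group they had that mutation and a diet with empagliflozin at 0.15 mg/g, about 15 mg/kg. The mice were put on their diets when 9 to 10 weeks old. By the methods of the study, a subset of mice was taken for myocardial RNA sequencing early in the course of treatment, and the full course that the labels name ends well after the age of these animals. Empagliflozin (EMPA) is an inhibitor of the sodium-glucose cotransporter SGLT2, and R403Q is a missense mutation of the myosin heavy chain that causes hypertrophic cardiomyopathy. The mutation is in every cell of the animal and its gene is expressed in cardiomyocytes. Each group has 2 libraries, so p-values measure the spread between those samples, and the labels do not say whether more than 1 animal went into a library.

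In total, 46005 nuclei were kept of 69249 barcodes, 6409 to 9514 per library, with a median of 2663 to 4065 unique molecular identifiers (UMIs) per nucleus and 31787308 to 45397128 UMIs per library before filtering. They formed 25 clusters, of which 24 were named in 11 classes from marker genes and 1, of 41 nuclei led by haemoglobin genes, was left unnamed. Vascular endothelial nuclei numbered 1278 to 2872 per library and met 6 to 12 of 12 markers by cluster, among them Flt1, Kdr, Pecam1 and Cdh5. Endocardial nuclei (337 to 661 per library) met Npr3, Smoc1 and Nrg1, and lymphoid nuclei (55 to 108 per library) were 1 cluster with T cell markers and 1 with B cell markers. Levels are given in CPM, the UMIs of a gene divided by all UMIs of that class in that library and scaled to a common total. Between 9 and 30 cell barcodes were shared by each pair of libraries.

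MHC class I molecules carry short peptides from the cytosol to the cell surface, where cytotoxic T cells and natural killer cells read them. A heavy chain (H2-K1 and H2-D1 are classical, H2-Q4, H2-Q6 and H2-Q7 belong to the Qa family) pairs with the light chain beta-2-microglobulin, encoded by B2m, and is filled with peptide that the transporter subunit Tap1 helps to bring into the endoplasmic reticulum. Nlrc5 is the transactivator of class I genes, it is itself induced by interferon gamma, and vascular endothelium is known for a high basal level of class I.

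The upstream sequences of the 5 heavy chain genes are shown because these genes share a compact control region and several of their levels differed in the same direction. The stretches of 120 bases below are from RefSeq on build GRCm38.p6, 5′ to 3′ on the strand of the gene. H2-Q6 lies at chr17:35424670-35424789 (plus strand), H2-Q7 at chr17:35439015-35439134 (plus), H2-Q4 at chr17:35379436-35379555 (plus), H2-K1 at chr17:34000346-34000465 (minus) and H2-D1 at chr17:35262916-35263035 (plus). Capitals mark 3 sets of letters: GGGATTCCC (a kappaB-type element), TTTCACTTC (an interferon response-type element) and CCAAT, which appears here as its reverse complement ATTGG.
H2-Q6: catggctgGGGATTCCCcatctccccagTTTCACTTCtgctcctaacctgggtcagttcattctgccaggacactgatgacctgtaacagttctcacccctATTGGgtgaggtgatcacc
H2-Q7: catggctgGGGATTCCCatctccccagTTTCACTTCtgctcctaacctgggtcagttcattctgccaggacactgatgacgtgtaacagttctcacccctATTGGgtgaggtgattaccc
H2-Q4: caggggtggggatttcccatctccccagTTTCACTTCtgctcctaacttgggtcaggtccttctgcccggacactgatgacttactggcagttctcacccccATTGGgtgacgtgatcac
H2-K1: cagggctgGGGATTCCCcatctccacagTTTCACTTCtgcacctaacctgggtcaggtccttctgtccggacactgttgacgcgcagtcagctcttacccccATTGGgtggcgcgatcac
H2-D1: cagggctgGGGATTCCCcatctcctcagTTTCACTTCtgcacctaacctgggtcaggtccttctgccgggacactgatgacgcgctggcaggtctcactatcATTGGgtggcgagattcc

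All 5 hold TTTCACTTC, and all but H2-Q4 hold GGGATTCCC. Among 32851 RefSeq promoters of 300 bases, searched on both strands, 0.505% hold TTTCACTTC, 0.353% hold GGGATTCCC and 37.4% hold CCAAT. The promoters of B2m (chromosome 2) and Tap1 (chromosome 17) hold neither of the 2 longer sets of letters, and Nlrc5 was not matched. H2-D1 holds the same 3 sets as H2-Q6. These matches describe the sequence only, and their part in the levels of the genes was not tested. Between the longest annotated protein-coding transcripts (GENCODE M21), 8.82% of the 90-base windows of H2-Q6 also occur in H2-Q7 and 12.3% of those of H2-Q7 occur in H2-Q6. None of the windows within the last 500 bases of either is shared. Only these transcripts were compared, so this does not show how well the reads of nuclei separate the 2 genes. Because the way reads were assigned between the 2 paralogs is not known, their UMIs are also given as a sum.

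H2-Q6 and H2-Q7 were found chiefly in lymphoid and endothelial nuclei. Their summed level was 278 ± 57.1 CPM (SD, n = 6 libraries) in lymphoid nuclei, 51.5 ± 61.8 in endothelial, 11.5 ± 8.45 in myeloid and 7.56 ± 10.8 in endocardial nuclei. It was 1.08 ± 0.53 CPM in fibroblasts, 0.92 ± 0.39 in pericytes and 0.56 ± 0.58 in cardiomyocytes. The lymphoid libraries (207 to 332 CPM) did not overlap the endothelial ones (6.57 to 172 CPM), whereas every further neighbouring pair in that order overlapped. H2-K1, by its own level, was likewise highest in lymphoid nuclei (401 ± 97 CPM) and lowest in cardiomyocytes (9.13 ± 3.78), and Nlrc5 ran from 181 ± 93.9 CPM in lymphoid nuclei to 2.65 ± 0.69 in fibroblasts. In smooth muscle nuclei Nlrc5 had 1 UMI over the 6 libraries, where 3 counts would be 12.9 to 32.8 CPM, so it has no place in that order.

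**Figure D1:**
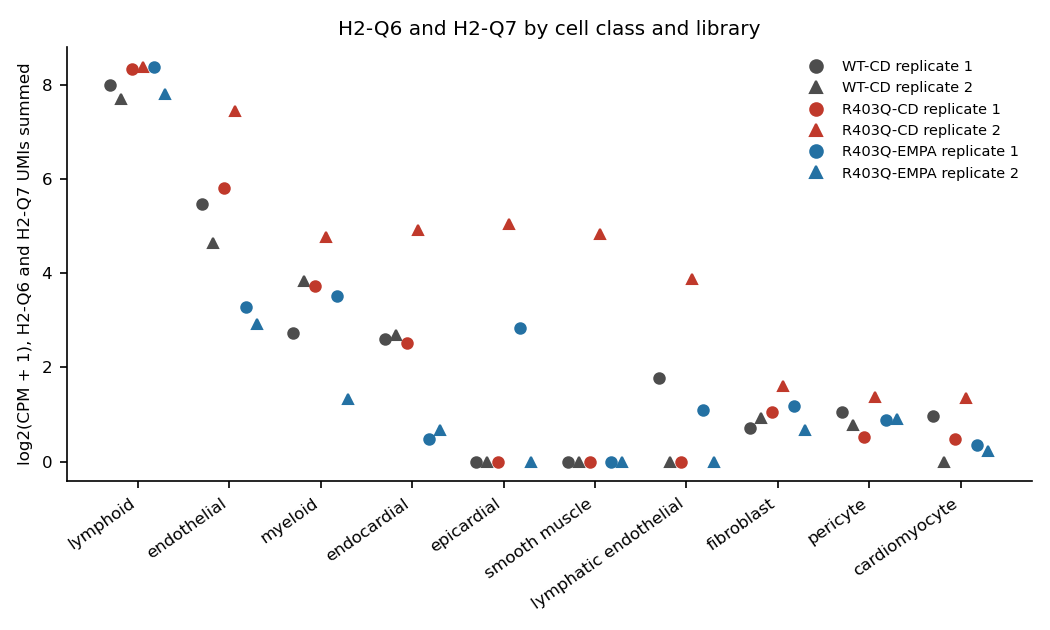
Level of H2-Q6 and H2-Q7 summed, as log2(CPM + 1) on the vertical axis, in each of 10 cell classes on the horizontal axis; each point is 1 library, coloured by group. The 6 lymphoid libraries lie together between 207 and 332 CPM, while the R403Q-EMPA libraries lie below all others in endothelial and endocardial nuclei, and R403Q-CD replicate 2 is the highest library in endothelial, myeloid and endocardial nuclei and in several classes where other libraries are at 0.

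In endothelial nuclei the pair was lowest in the treated hearts. H2-Q6 stood at 18.2 and 9.84 CPM in the WT-CD libraries, 19.7 and 59.8 in R403Q-CD, with 2.78 and 2.08 in R403Q-EMPA. H2-Q7 stood at 25.2 and 14.2 CPM in WT-CD, 35.2 and 112 in R403Q-CD, with 5.99 and 4.50 in R403Q-EMPA. Both R403Q-EMPA libraries lay below all 4 others for each gene, and R403Q-CD replicate 2 stood well above every other library. The sum in R403Q-EMPA was lower than in R403Q-CD by a log2 difference of -3.86 (SE 0.54), a 14.5-fold lower level, and lower than in WT-CD by -2.02 (SE 0.56), a 4.06-fold lower level. Without R403Q-CD replicate 2 the first difference was -2.82. Per nucleus, 2.58% and 1.49% of R403Q-EMPA endothelial nuclei held at least 1 UMI of either gene, against 8.96% and 6.32% in WT-CD and 12.3% and 37.9% in R403Q-CD.

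The groups kept that order at a fixed depth. With every nucleus thinned to 500 UMIs, the share was 0.348% and 0.0782% in R403Q-EMPA, 2.03% and 1.22% in WT-CD, and 2.24% and 8.26% in R403Q-CD. In R403Q-EMPA replicate 2 the thinned share rests on 1 nucleus (Wilson 95% interval 0.0138% to 0.442%, counting error only). Cardiomyocytes, which should hold little of either transcript, had a UMI in 0.0% to 1.74% of nuclei at a greater depth (median 6888.5 to 12115 UMIs, against 2117.5 to 3420 in endothelial nuclei), and none after thinning. In the R403Q-EMPA libraries the cardiomyocyte shares were 0.258% and 0.125%, below the endothelial shares of the same libraries.

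The same order was seen in most endothelial clusters taken alone. In the 2 largest, named here by a leading gene, the sum was 36.6 and 21.6 CPM in WT-CD, 48.2 and 159 in R403Q-CD, with 5.98 and 3.54 in R403Q-EMPA for the Car4 cluster. For the cluster led by G630055G22Rik, which also holds Vegfc and Alk, these values were 37.4 and 24.8, 62.1 and 200, and 7.76 and 5.12. In the cluster marked by Sox17 and Cxcl12 (leading gene Nr5a2), WT-CD replicate 2 and R403Q-EMPA replicate 2 had no UMI, so the groups overlapped there, and in the Gkn3 cluster WT-CD replicate 2 (13.5 CPM) lay within the R403Q-EMPA range. The clusters were made without MHC genes. R403Q-EMPA replicate 1 held 781 nuclei of the Nr5a2 cluster, against 65 to 216 in the other libraries.

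**Figure D2:**
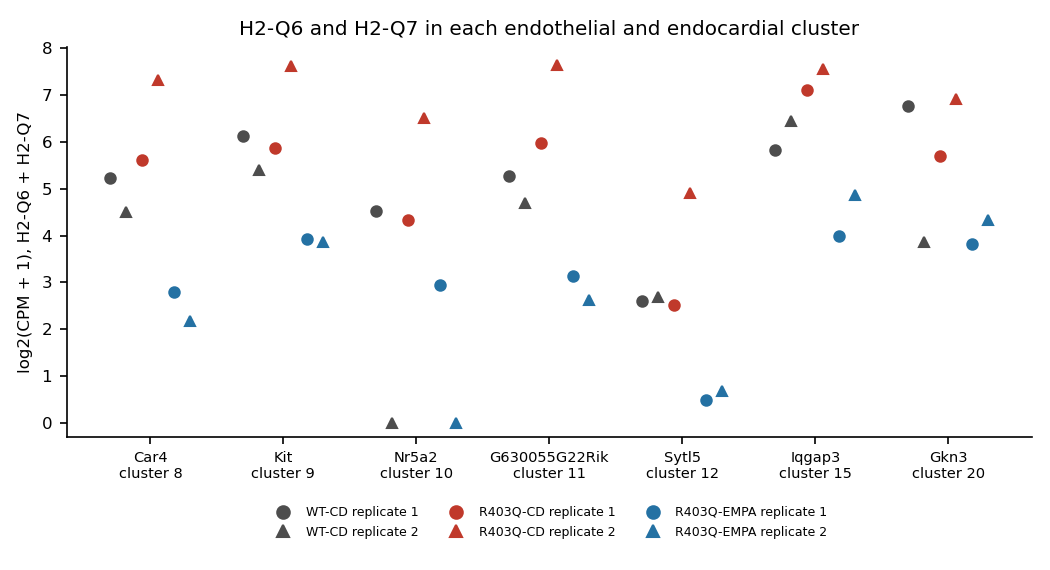
Level of H2-Q6 and H2-Q7 summed, as log2(CPM + 1) on the vertical axis, in each endothelial cluster and in the endocardial cluster (12, led by Sytl5) on the horizontal axis; each point is 1 library. In the Car4, Kit, G630055G22Rik and cycling (Iqgap3) clusters and in the endocardial cluster both R403Q-EMPA libraries lie below the 4 control-diet libraries.

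Lymphoid markers in the endothelial nuclei were checked because lymphoid nuclei carried the most H2-Q6 and H2-Q7. The summed level of 14 lymphoid markers in endothelial nuclei was 49.4 and 50.8 CPM in WT-CD, 40.2 and 48.9 in R403Q-CD, with 8.02 and 17.6 in R403Q-EMPA, against 7484 to 10552 CPM in lymphoid nuclei. Most of it in every library was Cd247, the zeta chain of the T cell receptor, at 42.1 and 43.8 CPM in WT-CD, 35.1 and 42.5 in R403Q-CD, with 4.81 and 12.8 in R403Q-EMPA. The other 13 markers summed to 7.26 and 7.01 CPM in WT-CD, 5.13 and 6.41 in R403Q-CD, with 3.21 and 4.84 in R403Q-EMPA, against 6589 to 9198 in lymphoid nuclei, so the treated libraries were the lowest here too. Cd3e and Pax5, which define T and B cells, had at most 1 UMI per library. Cd3e reached only 12 to 33 UMIs per library even in lymphoid nuclei, so its low count says little. The B cell marker Bank1 was lowest in the treated libraries (0.749 and 0.692 CPM, against 2.09 to 3.39 in the others). Cd79a, also a B cell marker, was highest there (0.428 and 1.38 CPM, against 0.147 to 0.279), on 1 to 4 UMIs per library. R403Q-CD replicate 2, highest for the pair, was not highest for the summed markers. The part of Cd247 and of lymphoid RNA in the level of the pair was not tested.

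In endocardial nuclei, the lining of the heart chambers, the pair rested on few UMIs in all but 1 library. H2-Q7 stood at 3.56 and 3.62 CPM in WT-CD, 3.14 and 20 in R403Q-CD, with 0.393 and 0.594 in R403Q-EMPA, the last 2 values being 1 UMI each. H2-Q6 stood at 1.52 and 1.81 CPM in WT-CD, 1.57 and 9.19 in R403Q-CD, while no UMI was found in either R403Q-EMPA library, where 3 counts would be 1.18 and 1.78 CPM. Set against a floor of 3 counts over the group, H2-Q6 pooled over libraries was at least 9.33-fold lower in R403Q-EMPA than in R403Q-CD and at least 2.36-fold lower than in WT-CD. These values leave out the counting error of the higher group and the spread between libraries, and the WT-CD level rests on 7 UMIs. Of the 25 R403Q-CD UMIs, 23 came from replicate 2.

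The pair was not low in treated lymphoid nuclei. Its sum was 252 and 207 CPM in WT-CD, 320 and 332 in R403Q-CD, with 332 and 224 in R403Q-EMPA, and the log2 difference between R403Q-EMPA and R403Q-CD was -0.20 (SE 0.26). H2-Q7 alone was 184 and 114 CPM in WT-CD, 251 and 283 in R403Q-CD, with 246 and 201 in R403Q-EMPA. H2-Q6 alone rested on 3 to 18 UMIs per library. In myeloid nuclei the sum was 5.61 and 13.2, 12.2 and 26.3, and 10.4 and 1.51 CPM in the same order of groups, which overlap.

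Among the tested members, H2-Q4, a heavy chain of the Qa family, was the only 1 of 6 that passed the test in endothelial nuclei for R403Q-EMPA against R403Q-CD. It stood at 57.4 and 56.6 CPM in WT-CD, 69.4 and 102 in R403Q-CD, with 32.0 and 28.4 in R403Q-EMPA. It fell by 1.53 on the log2 scale (SE 0.20, to 0.346 of the R403Q-CD level; edgeR quasi-likelihood test, adjusted p = 0.0269 over 14044 genes, of which 0.242% were called). The 2 treated libraries lay below all 4 others. The call was lost without R403Q-CD replicate 2 (adjusted p = 0.173), without R403Q-EMPA replicate 1 (0.255) or without R403Q-EMPA replicate 2 (0.068).

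H2-K1 showed a difference of like size in endothelial nuclei that fell just short of the threshold. This classical heavy chain stood at 185 and 130 CPM in WT-CD, 187 and 286 in R403Q-CD, with 98.8 and 90.3 in R403Q-EMPA. The difference between R403Q-EMPA and R403Q-CD was -1.35 on the log2 scale (SE 0.22, 95% interval -1.84 to -0.87, adjusted p = 0.0552 by edgeR). DESeq2 and edgeR with DESeq2 size factors called it, at adjusted p = 3.53e-06 and 0.0490. Leaving out WT-CD replicate 1, WT-CD replicate 2 or R403Q-CD replicate 1 also gave a call (adjusted p = 0.0145, 0.0156 and 0.0463), whereas without R403Q-CD replicate 2 the difference was -1.01 (0.373). Both treated libraries lay below all others.

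H2-D1, the second classical heavy chain, did not pass the test. It stood at 237 and 152 CPM in WT-CD, 195 and 309 in R403Q-CD, with 174 and 194 in R403Q-EMPA. The difference between R403Q-EMPA and R403Q-CD was -0.49 (SE 0.24, 95% interval -1.03 to 0.05, adjusted p = 0.553 by edgeR), and against WT-CD it was -0.06 (SE 0.24, interval -0.60 to 0.48). The treated libraries lay within the WT-CD range.

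B2m, the light chain, lay between these heavy chains. It stood at 237 and 153 CPM in WT-CD, 205 and 355 in R403Q-CD, with 154 and 145 in R403Q-EMPA, so that 1 treated library lay just above the lower WT-CD library. The difference between R403Q-EMPA and R403Q-CD was -0.94 (SE 0.26, 95% interval -1.52 to -0.37, adjusted p = 0.243 by edgeR), and -0.49 without R403Q-CD replicate 2. Tap1 stood at 18.6 and 23.2, 24.1 and 28.3, and 15.5 and 11.4 CPM in the same order of groups, with a difference of -0.95 (SE 0.22, adjusted p = 0.167 by edgeR). Nlrc5 had the largest fitted difference of the 6. It stood at 21.5 and 37.1 CPM in WT-CD, 21.7 and 45.3 in R403Q-CD, with 8.13 and 3.46 in R403Q-EMPA, a difference of -2.39 (SE 0.47, 95% interval -3.44 to -1.33, adjusted p = 0.115 by edgeR). DESeq2 called 4 of the 6, H2-Q4, H2-K1, B2m (adjusted p = 0.0248) and Nlrc5 (0.0462), beside 120 genes in all.

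**Figure D3:**
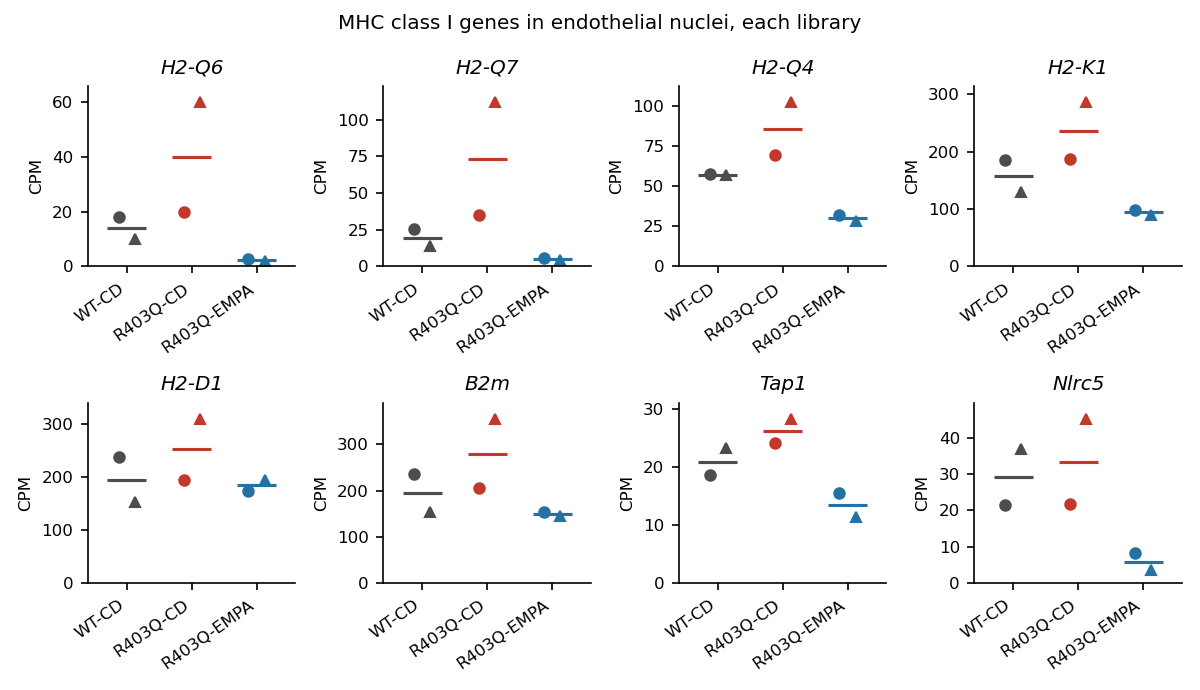
Level in CPM (vertical axis, from 0) of each of the 8 genes in endothelial nuclei by group (horizontal axis); circles are replicate 1, triangles are replicate 2 and lines are means of the 2 libraries. For all 8 genes the R403Q-EMPA libraries lie below both R403Q-CD libraries, and R403Q-CD replicate 2 is the highest library of all.

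Against WT-CD, none of the 6 tested members was called in R403Q-EMPA endothelial nuclei, where 0.812% of all genes were. At an unadjusted p under 0.05 there were 4, beside 1778 of all 14044 genes. Of the 6, DESeq2 called H2-Q4 alone (adjusted p = 0.0249), beside 213 genes in all. The log2 differences were -0.90 (SE 0.20, adjusted p = 0.0969 by edgeR) for H2-Q4, -2.19 (SE 0.47, 0.0887) for Nlrc5, -0.71 (SE 0.22, 0.210) for H2-K1 and -0.61 (SE 0.22, 0.309) for Tap1. In these 4 genes both treated libraries lay below both WT-CD libraries.

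In endocardial nuclei 2 of the 6 tested members were called, both lower in R403Q-EMPA than in R403Q-CD, where 0.815% of 11527 genes were called. H2-K1 stood at 142 and 113 CPM in WT-CD, 176 and 237 in R403Q-CD, with 66.4 and 64.2 in R403Q-EMPA. It fell by 1.70 (log2, SE 0.18, to 0.309 of the R403Q-CD level; edgeR adjusted p = 0.00297). H2-Q4 stood at 35.6 and 26.3, 42.3 and 61.5, and 13.0 and 11.9 CPM, and fell by 2.10 (SE 0.27, adjusted p = 0.0046). Without R403Q-CD replicate 2 the adjusted p of H2-K1 was 0.0669 and that of H2-Q4 was 0.0813, and without R403Q-EMPA replicate 1 they were 0.0392 and 0.0634.

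Both genes were also below the WT-CD level in treated endocardial nuclei, where 2.16% of genes were called. H2-K1 fell by 0.99 (SE 0.19, edgeR adjusted p = 0.0217) and H2-Q4 by 1.33 (SE 0.28, 0.0345). These calls were lost without R403Q-EMPA replicate 1 (adjusted p = 0.182 and 0.219) or replicate 2 (0.0685 and 0.0880), and that of H2-Q4 also without WT-CD replicate 1 (0.0754), with DESeq2 (0.0574) and with predicted doublets kept (0.0717).

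H2-D1, B2m, Tap1 and Nlrc5 were not called in endocardial nuclei. H2-D1 stood at 169 and 112 CPM in WT-CD, 155 and 291 in R403Q-CD, with 156 and 176 in R403Q-EMPA. Its difference between R403Q-EMPA and R403Q-CD was -0.47 (SE 0.26, 95% interval -1.03 to 0.09), which came to 0.07 without R403Q-CD replicate 2. B2m differed by -0.90 (SE 0.25, adjusted p = 0.157 by edgeR), Tap1 by -1.02 (SE 0.42, 0.391) and Nlrc5 by -2.76 (SE 0.63, 0.0709), which DESeq2 called (adjusted p = 0.0228).

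R403Q-CD against WT-CD asks what differs with the mutation on control diet, and it shares the R403Q-CD libraries with the comparison of the treated hearts. None of the 6 tested members was called by edgeR for R403Q-CD against WT-CD in endothelial or endocardial nuclei, where 0.0% of all genes were called in each class. At an unadjusted p under 0.05 there were 3 in endothelial nuclei, beside 498 of all 14044 genes, and 4 in endocardial nuclei, beside 421 of 11527, and DESeq2 called none. In endothelial nuclei the fitted differences ran from 0.19 (SE 0.39) for Nlrc5 to 0.64 (SE 0.21) for H2-K1, all above 0, and the pair summed was higher by 1.84 (SE 0.46), or by 0.78 without R403Q-CD replicate 2. R403Q-CD replicate 1 lay within the WT-CD range for H2-D1, B2m and Nlrc5 and above it for the other 5 genes, and replicate 2 lay above it for all 8.

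No tested member was called in any of the 7 other classes in which members passed the filter on low counts. For R403Q-EMPA against R403Q-CD the share of genes called was 0.372% in fibroblasts, 0.572% in pericytes, 0.251% in cardiomyocytes, 0.0925% in myeloid, 0.198% in lymphoid, 0.0449% in lymphatic endothelial and 0.171% in epicardial nuclei. For R403Q-EMPA against WT-CD these shares were 1.20%, 1.66%, 4.12%, 0.490%, 0.0198%, 0.0449% and 0.257%. For R403Q-CD against WT-CD they were 0.0% in fibroblasts, pericytes, lymphoid and lymphatic nuclei, 0.0975% in cardiomyocytes, 0.00925% in myeloid and 0.0643% in epicardial nuclei. DESeq2 called none either. For R403Q-EMPA against R403Q-CD, the members at an unadjusted p under 0.05 were 2 of 6 in fibroblasts (2009 of all 15072 genes), 1 of 6 in myeloid (778 of 10811) and 1 of 3 in lymphatic nuclei (455 of 8910). For R403Q-EMPA against WT-CD they were 1 of 6 in pericytes (1456 of 11895) and 1 of 3 in epicardial nuclei (397 of 4668). For R403Q-CD against WT-CD they were 3 of 3 in epicardial (237 of 4668), 2 of 6 in myeloid (482 of 10811) and 1 of 6 in lymphoid nuclei (342 of 5049). In smooth muscle nuclei no member passed the filter. Over all nuclei summed, edgeR called none of the 6 in any comparison (0.0% of genes called for R403Q-CD against WT-CD, 0.0736% for the treated hearts against R403Q-CD and 4.6% for the treated hearts against WT-CD), with 1, 5 and 1 at an unadjusted p under 0.05, beside 863, 2591 and 4083 of all 19024 genes. DESeq2 called H2-Q4, H2-K1 and Nlrc5 for R403Q-EMPA against R403Q-CD (adjusted p = 0.000405, 0.0110 and 0.0237). The shares above are those of edgeR. How many of all genes DESeq2 called over all nuclei was not counted, so these DESeq2 calls have no background beside them.

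In fibroblasts, H2-K1 stood at 65.0 and 37.8 CPM in WT-CD, 39.4 and 59.1 in R403Q-CD, with 56.3 and 47.6 in R403Q-EMPA, a difference of 0.04 (SE 0.25) between the last 2 groups. H2-D1 stood at 40.2 and 61.2 CPM in R403Q-CD, with 69.2 and 75.0 in R403Q-EMPA (0.47, SE 0.31), and B2m at 54.3 and 76.8 and at 86.8 and 73.2 CPM (0.25, SE 0.27). H2-Q4 and Tap1, the 2 fibroblast members at an unadjusted p under 0.05, had -0.60 (SE 0.23, edgeR adjusted p = 0.325) and -0.63 (SE 0.26, 0.350), with both treated libraries below both R403Q-CD libraries. In pericytes the differences were 0.04 (SE 0.27) for H2-K1, 0.47 (SE 0.27) for H2-D1 and 0.38 (SE 0.33) for B2m. In myeloid nuclei they were -0.14 (SE 0.22), 0.17 (SE 0.29) and -0.28 (SE 0.20), and in lymphoid nuclei -0.30 (SE 0.22), 0.04 (SE 0.29) and 0.05 (SE 0.31). The 3 fitted values thus lay above 0 in fibroblasts and in pericytes, and on both sides of 0 in myeloid and in lymphoid nuclei, and none was called.

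**Figure D4:**
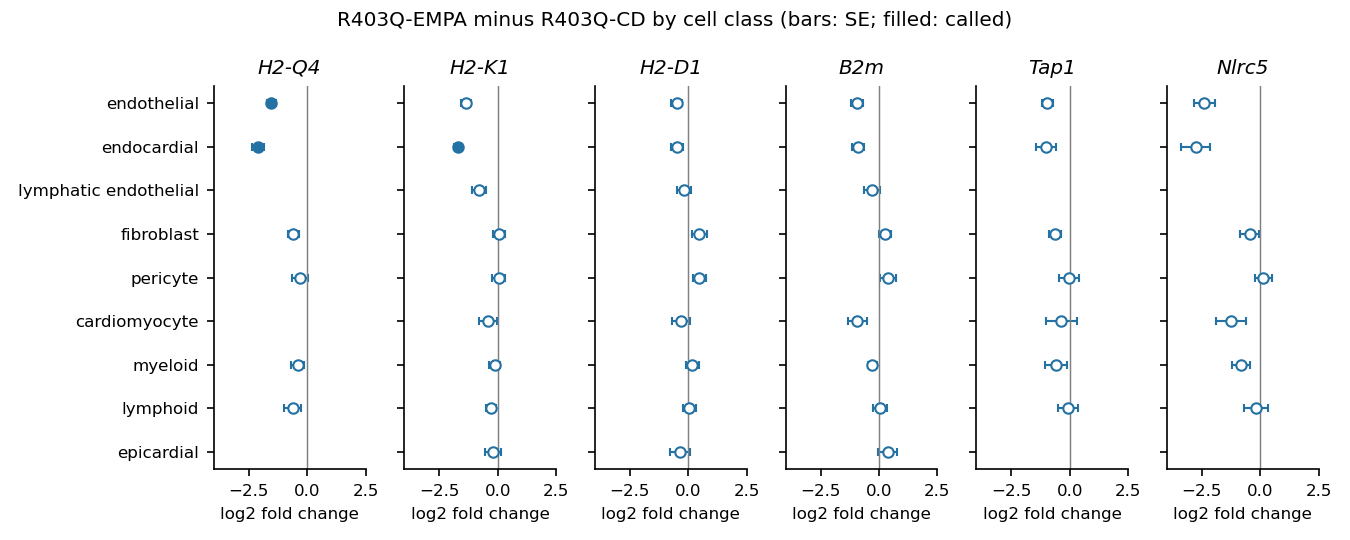
Fitted log2 fold change of R403Q-EMPA against R403Q-CD (horizontal axis) for each tested member in each class where it passed the filter (vertical axis); bars are standard errors and filled points passed the test. Filled points are H2-Q4 in endothelial and endocardial nuclei and H2-K1 in endocardial nuclei, and the points of H2-D1 and B2m in fibroblasts and pericytes lie to the right of 0.

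Whether the change in endothelial nuclei differed from that in another class was tested within libraries, with the library as a block, in 4 fits chosen after the data were seen. H2-K1 differed from fibroblasts by -1.38 (SE 0.14, edgeR adjusted p = 0.00587), from pericytes by -1.42 (SE 0.25, 0.00912) and from myeloid nuclei by -1.17 (SE 0.20, 0.0121). B2m differed from fibroblasts by -1.16 (SE 0.16, 0.0174) and from pericytes by -1.37 (SE 0.22, 0.00639), and H2-D1 by -0.94 (SE 0.16, 0.0359) and -0.98 (SE 0.22, 0.0389). Nlrc5 differed from pericytes by -2.66 (SE 0.50, 0.0143) and from lymphoid nuclei by -2.19 (SE 0.47, 0.0265). H2-Q4 and Tap1 were called in none of the 4. Of all genes, 0.416% were called against fibroblasts, 0.508% against pericytes, 0.221% against myeloid and 0.350% against lymphoid nuclei.

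Each of those calls was lost when certain libraries were left out. Against fibroblasts, the calls of H2-K1, B2m and H2-D1 were lost without R403Q-CD replicate 1 (adjusted p = 0.0924, 0.0924 and 0.367) or R403Q-CD replicate 2 (0.114, 0.247 and 0.331). Against pericytes, B2m was lost only without R403Q-EMPA replicate 1 (0.418), and H2-K1 and Nlrc5 without R403Q-EMPA replicate 1 (0.432 and 0.299) or R403Q-CD replicate 2 (0.124 and 0.137), while H2-D1 was also lost without R403Q-CD replicate 1 (0.0560, with 0.547 and 0.582 for the other 2). Against myeloid nuclei, H2-K1 was lost without R403Q-CD replicate 1 (0.0642), R403Q-CD replicate 2 (0.174) or R403Q-EMPA replicate 1 (0.492). Against lymphoid nuclei, Nlrc5 was lost without R403Q-CD replicate 2 (0.399) or R403Q-EMPA replicate 1 (0.791). Against fibroblasts the difference in these fits ran from -1.44 to -1.36 for H2-K1, from -0.98 to -0.90 for H2-D1 and from -1.30 to -0.996 for B2m. The difference of B2m from pericytes from -1.68 to -0.92 and that of Nlrc5 from pericytes from -3.25 to -1.84. The difference of Nlrc5 from lymphoid nuclei ran from -2.60 to -1.21, the latter without R403Q-EMPA replicate 1.

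The balance of the 2 classical heavy chains within each library does not depend on scaling between libraries. In endothelial nuclei there were 0.781 and 0.854 H2-K1 UMIs for each H2-D1 UMI in WT-CD, 0.959 and 0.925 in R403Q-CD, with 0.568 and 0.466 in R403Q-EMPA. R403Q-CD replicate 2, the library with the highest levels, thus had a ratio close to that of R403Q-CD replicate 1. In endocardial nuclei the ratios were 0.838 and 1.00, 1.14 and 0.816, and 0.426 and 0.364. In both classes the treated libraries lay below the 4 others. The treated libraries were also the lowest in fibroblasts (0.813 and 0.636, against 0.895 to 1.14 in the others), myeloid nuclei (0.673 and 0.698, against 0.744 to 1.01) and pericytes (0.687 and 0.483, against 0.795 to 1.29), whereas in lymphoid nuclei (1.26 and 1.35) they lay within the WT-CD range. These ratios are a description with no test.

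**Figure D5:**
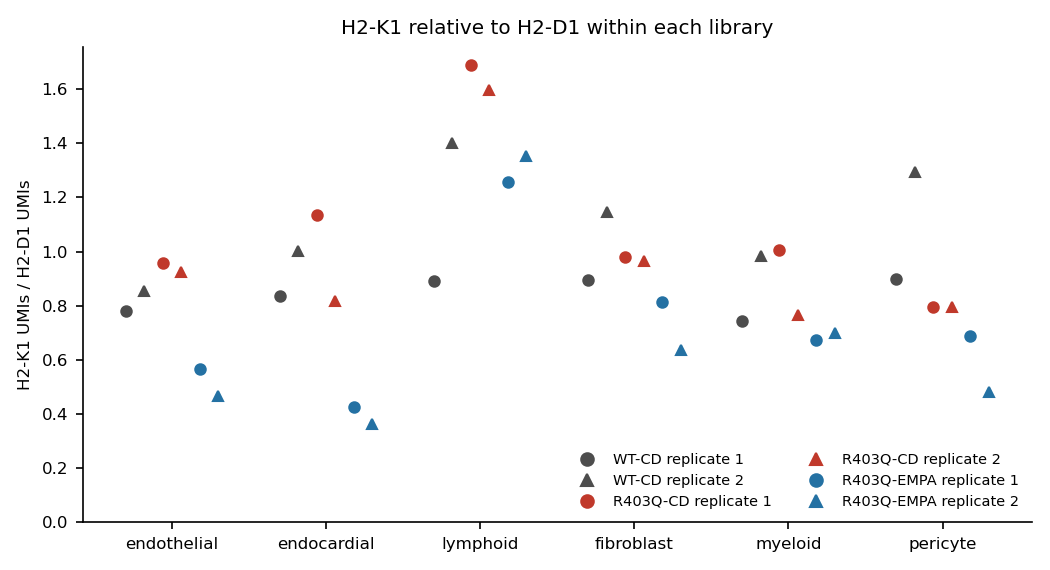
UMIs of H2-K1 divided by UMIs of H2-D1 (vertical axis, from 0) in each library, for 6 cell classes (horizontal axis). The 2 R403Q-EMPA libraries are lowest in every class shown except lymphoid nuclei, with the widest gap in endothelial and endocardial nuclei.

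None of the other listed genes of antigen presentation was called in endothelial nuclei between R403Q-EMPA and R403Q-CD. At an unadjusted p under 0.05 there were 1360 of all 14044 genes, beside which the counts of the lists stand. Of 31 tested interferon receptors and response genes edgeR called none (5 at an unadjusted p under 0.05), and their median log2 difference was 0.05, beside 0.01 over all genes tested. Of 13 genes of peptide supply and loading none was called (5 at an unadjusted p under 0.05) and the median was 0.00. Of 12 regulators of class I transcription none was called (1 at an unadjusted p under 0.05), with a median of 0.03. Irf1, an interferon-induced activator, stood at 88.1 and 77.5 CPM in WT-CD, 75.4 and 73.0 in R403Q-CD, with 87.7 and 73.0 in R403Q-EMPA. Other class I heavy chains (6 tested), class I-like molecules (5) and MHC class II genes (7) gave no call, with medians of -0.56, -0.15 and -0.35 and with 1, 0 and 0 at an unadjusted p under 0.05. H2-T22, among those heavy chains, had -0.71 (SE 0.18, edgeR adjusted p = 0.202), and H2-T23 had -0.06 (SE 0.28). H2-Q5, a further Qa-family gene that the list did not hold and that is named here after its values were seen, had -2.21 (SE 0.35, edgeR adjusted p = 0.0519), a difference larger in size than that of H2-Q4 or H2-K1. Against WT-CD it had -0.86 (SE 0.38, adjusted p = 0.399).

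The genes near the pair on chromosome 17 were counted as well, with neighbours taken by name from RefSeq on GRCm38.p6. Of 66 genes within 500 kb that the matrices hold, members left out, 42 were tested in endothelial nuclei and 2 were called for R403Q-EMPA against R403Q-CD, both higher (0.242% of all genes were called). These were Hspa1a and Hspa1b, which encode inducible heat shock proteins of the HSP70 family and rose by 5.51 (SE 0.36) and 5.98 (SE 0.38) on the log2 scale (edgeR adjusted p = 0.000689 for each). The median over the 42 genes was 0.17, beside 0.01 over all genes. In endocardial nuclei the same 2 of 33 were called, at 3.8 (SE 0.56, adjusted p = 0.0106) and 3.97 (SE 0.54, 0.00597). Whether the level of these stress genes has a part in that of the class I genes was not tested.

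In endocardial nuclei, 1 gene of these 6 lists was called for the same comparison, where 0.815% of all genes were called. Calr, the chaperone calreticulin that helps heavy chains to fold, rose by 1.14 (SE 0.23, edgeR adjusted p = 0.0497), from 40 and 55.1 CPM in R403Q-CD to 104 and 114 in R403Q-EMPA. Psmb9, a subunit of the immunoproteasome, had -1.27 (SE 0.31, adjusted p = 0.0939). The median of 27 interferon genes was -0.22 beside -0.00 over all genes, with none called and 8 at an unadjusted p under 0.05, as were 1276 of all 11527 genes. DESeq2 also called Calr there (adjusted p = 0.0228), and no gene of the 6 lists in endothelial nuclei.

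Genes of the same lists were called in other classes as well. For R403Q-EMPA against R403Q-CD, Calr rose by 1.31 (SE 0.20, edgeR adjusted p = 0.0452) in fibroblasts, where 0.372% of all genes were called, from 52.6 and 55.1 CPM to 144 and 131. In pericytes, where 0.572% were called, Calr rose by 1.22 (SE 0.21, 0.0127) and Pdia3, a disulfide isomerase of the peptide loading complex, by 1.06 (SE 0.20, 0.0204). In cardiomyocytes, where 0.251% were called, Iigp1, an interferon-induced GTPase, fell by 0.99 (SE 0.16, 0.0463), from 88.7 and 85.6 CPM to 47.6 and 43.6. For R403Q-EMPA against WT-CD, Calr rose by 0.83 (SE 0.18, 0.0316) in cardiomyocytes and by 1.01 (SE 0.21, 0.0198) in pericytes, Iigp1 fell by 0.92 (SE 0.16, 0.0149) in cardiomyocytes, and Pdia3 rose by 1.71 (SE 0.33, 0.0231) in epicardial nuclei, which DESeq2 did not call (0.128). The edgeR test called no list gene for R403Q-CD against WT-CD in any class.

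The genes most like the pair across the 10 classes, by Pearson's r of mean log2(CPM + 1), were Bach2 (r = 0.958), Cd247 (0.958), Mfng (0.957), Ifi208 (0.951) and Cnot6l (0.949) of 10458 genes. Among the members r was highest for Nlrc5 (0.883) and Tap1 (0.858). These correlations rest on 10 points, of which the lymphoid class is far from the rest. Across 60 deviations of libraries from their class mean, the members H2-Q4 (r = 0.646) and Nlrc5 (0.578) were among the most alike, and outside the members the highest were Slamf6 (0.644), Gm19684 (0.643), 2700049A03Rik (0.607), D830026I12Rik (0.567) and Marchf1 (0.557). Those 60 points share 6 libraries, and Slamf6 was at or near 0 in endothelial nuclei.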

How the data were processed

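Nuclei of left ventricular tissue were profiled with 10x Genomics 3′ chemistry. The authors deposited UMI counts per gene and barcode, and per the submitters' processing notes these came from Cell Ranger 8.0.1 on GRCm39. The study states about 10000 nuclei captured per sample. The matrices held 69249 barcodes.

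Nuclei with at least 500 UMIs, at least 300 genes and at most 5% mitochondrial UMIs were kept, and doublets predicted by Scrublet in scanpy 1.11.5 (3.68% to 6.45% per library) were removed. Clusters were built from 2000 variable genes with the MHC genes among them left out (30 principal components, 15 neighbours, Leiden resolution 1) and named where at least 3 markers of a class passed a 2-fold limit. The names are rebuilt and may differ from those of the study.

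Raw UMIs were summed per library and class, for 10 classes with at least 20 nuclei in every library. The test was the edgeR 4.0.16 quasi-likelihood test (R 4.3.3, filterByExpr, TMM scaling) over all 6 libraries with no covariate. Adjusted p-values are Benjamini-Hochberg values over all genes of a class and comparison, called under 0.05. DESeq2 1.42.0, DESeq2 size factors, no low-count filter, no mitochondrial filter, doublets kept, at least 1000 UMIs and leaving out each library were alternatives. The interaction fits were added after seeing the data. The edgeR test was first run on simulated counts with known folds, drawn from the endothelial sums, for R403Q-EMPA against R403Q-CD. DESeq2, the interaction fits, the other classes and the other comparisons were not tried on simulated counts.

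The genes named by plan are the 8 members, the sum of H2-Q6 and H2-Q7, genes called in 6 lists of antigen presentation and interferon genes with up to 4 examples, and the 5 genes most like the pair by each measure. Also named are markers of cell classes, leading genes of clusters, the called neighbours Hspa1a and Hspa1b, and H2-Q5. Members and lists were chosen with earlier results of these data known. RefSeq sequences are from GRCm38.p6, whose coordinates do not apply to the count matrices. Intervals of shares cover counting error only. The design planned a count of genes within 500 kb of the pair only with an annotation of the build of the matrices. None was used, and neighbours were instead taken by name from RefSeq on GRCm38.p6, a departure from that plan.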

Additional observations from a re-analysis of the deposited data

Results flagged for a closer look

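The difference between R403Q-EMPA and R403Q-CD passed the test for unequal size in endothelial nuclei and another class for several members, by an interaction term with the library as a block (edgeR, adjusted p over all genes). Each of these calls was lost when at least 1 library was left out, with a highest adjusted p of 0.114 to 0.791. The differences themselves then ran from -1.44 to -1.36 for H2-K1 and from -0.98 to -0.90 for H2-D1 against fibroblasts, and from -2.60 to -1.21 for Nlrc5 against lymphoid nuclei. Compared with fibroblasts, the endothelial difference was lower by a log2 value of -1.38 for H2-K1, -1.16 for B2m and -0.94 for H2-D1. Compared with pericytes, it was -1.42 for H2-K1, -1.37 for B2m, -0.98 for H2-D1 and -2.66 for Nlrc5. Compared with myeloid nuclei it was -1.17 for H2-K1, and compared with lymphoid nuclei it was -2.19 for Nlrc5. For H2-D1 the fitted values were -0.49 in endothelial nuclei and 0.47 in fibroblasts and in pericytes, none of them called alone. All 4 fits use the same endothelial nuclei, so these 9 values are not independent of each other. Groups of 2 libraries are too small for a test of single outlying samples.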

How the results depend on the processing

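With 2 libraries per group, counts of calls and several fitted values moved with the settings. Leaving out each library in turn, the tested members called in endothelial nuclei ran from 0 to 4 for R403Q-EMPA against R403Q-CD and from 0 to 1 against WT-CD, in endocardial nuclei from 0 to 3 and from 0 to 2, and in other classes from 0 to 1 for R403Q-EMPA against WT-CD. Genes called in endothelial nuclei ran from 0 to 39 (R403Q-CD against WT-CD), 4 to 202 (R403Q-EMPA against R403Q-CD) and 15 to 596 (R403Q-EMPA against WT-CD), and in endocardial nuclei from 0 to 2, 1 to 249 and 25 to 423. Members whose change differed between endothelial nuclei and another class ran from 0 to 4 (fibroblasts), 0 to 4 (pericytes), 0 to 3 (myeloid) and 0 to 1 (lymphoid).

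For R403Q-EMPA against R403Q-CD in endothelial nuclei, DESeq2 called 4 members and 120 genes, DESeq2 size factors 2 members, no low-count filter 5 members and 516 genes, and doublets kept 21 genes. Against WT-CD, DESeq2 called 1 member and 213 genes and no filter 3 members and 779 genes. For R403Q-CD against WT-CD, DESeq2 called 5 genes, and no filter 1 member and 75 genes. In endocardial nuclei, no filter called 4 members for R403Q-EMPA against R403Q-CD, and 39, 494 and 780 genes in the 3 comparisons, while DESeq2 and doublets kept each called 1 member (H2-K1) for R403Q-EMPA against WT-CD. In other classes, no filter called 1 member for R403Q-CD against WT-CD and 2 for R403Q-EMPA against R403Q-CD, and no mitochondrial filter 1 for the first of these. For the other classes, neither the class nor the number of all genes called is given. Any count of members with no number of genes beside it has no background here, so it cannot be weighed. The cause of these shifts with the settings was not tested.

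The sign of some values turned. For R403Q-EMPA against R403Q-CD, H2-K1 in pericytes was -0.38 with doublets kept, H2-D1 in lymphoid nuclei was -0.0175 without the filter and -0.0027 with at least 1000 UMIs, and B2m in lymphoid nuclei was -0.0085 without the filter and -0.0222 with doublets kept. H2-Q6 alone in lymphoid nuclei was -0.48 (R403Q-CD against WT-CD) and -0.52 (R403Q-EMPA against WT-CD), where the sum was above 0. With 1 library left out, for R403Q-EMPA against R403Q-CD, H2-K1 ran from -0.22 to 0.35 in fibroblasts, -0.33 to 0.31 in pericytes and -0.51 to 0.10 in myeloid nuclei. H2-D1 ran from -0.83 to 0.0692 in endocardial, -0.23 to 0.65 in myeloid and -0.20 to 0.19 in lymphoid nuclei, and B2m from -0.10 to 0.90 in pericytes and -0.48 to 0.37 in lymphoid nuclei. Against WT-CD, H2-D1 ran from -0.29 to 0.20 in endothelial and -0.0073 to 0.48 in endocardial nuclei, and Tap1 from -0.79 to 0.26 in endocardial nuclei. For R403Q-CD against WT-CD, Nlrc5 ran from -0.43 to 0.76 in endothelial and -0.35 to 1.69 in endocardial nuclei, and the pair summed from -0.17 to 2.45 in endocardial nuclei. No paired analysis was possible because the replicate numbers only name the libraries.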
